A study of Mus musculus and Heterocephalus glaber with 4 samples.

Results

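The sites described here are open chromatin regions that were called in control skin fibroblasts of the naked mole rat (Heterocephalus glaber) and had no counterpart in fibroblasts of the same species carrying SV40 large T antigen. They were chosen by their positions in the 2 lists, as the peaks of the control list that overlapped no large T peak by 1 bp or more, on scaffolds whose last peak in either list ended beyond 1 Mb. This gave 18303 control-only sites among 79538 control peaks on 216 scaffolds, and the other 61235 control peaks are called shared. The 4 peak lists of the study, which also profiled mouse fibroblasts, held 302336 peaks in all.

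Adult skin fibroblasts were profiled by ATAC-seq at passage 16, with 1 library of control cells and 1 of cells given SV40 large T antigen. The labels do not say how it was introduced, from how many animals the cells came, or whether the large T cells are 1 clone. Both naked mole rat cultures grew in 15% serum at 32 °C, 3% oxygen and 5% CO2, and each reaction took 50000 cells. With 1 library per condition there was no replicate error, so no comparison was tested and every value is a description of these libraries. The read depth is unknown, and a site can miss a list because it was closed or because that library did not sample it deeply enough; the lists do not tell these apart. Each peak carries the authors' score, which starts at 50 and ranks peaks only within its own list. The identity of the cells was not checked against marker genes, since no gene annotation of these scaffolds was used here.

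ATAC-seq uses a transposase that inserts sequencing adapters where DNA is free of nucleosomes, so peaks mark promoters, enhancers and insulators. Promoters tend to be open in many cell types, whereas enhancers follow the state of the cell and often lie in groups around the genes they serve. Large T antigen is a viral protein that binds and inactivates p53 and the retinoblastoma family, which releases E2F-driven cell cycle genes. The naked mole rat is a long-lived rodent, and the title of the study concerns the resistance of its cells to reprogramming and the stability of their epigenome.

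Control-only sites were a weak and narrow part of the control list. They made up 23.0% of the control peaks (exact 95% binomial interval 22.7 to 23.3, for counting error only) and 16.7% of the sequence under them, 18.9 of 113.5 Mb. This share is the rule itself and is given as background. Overlap was nearly all or none. The median shared peak was covered over 97.3% of its width by large T peaks, and 1263 shared peaks (2.06%) were covered for less than 50%. At the edge of the rule, 15 control-only sites had a large T peak within 10 bp, the nearest at 1 bp, and 11 shared peaks were overlapped for 10 bp or less, the smallest overlap being 4 bp. The control-only sites with the smallest gaps lay on JH602051 at 2578946 to 2579647 (1 bp), JH602117 at 4333493 to 4334585 (1 bp), JH602122 at 9921468 to 9922540 (2 bp), JH602045 at 2372161 to 2373580 (3 bp) and JH602046 at 32315004 to 32315652 (3 bp). Their scores were 50.53 to 152.3. The shared peaks with the smallest overlaps, on JH602176 at 1039791 to 1040832 (4 bp) and on JH602060 at 11593988 to 11596370 (5 bp), scored 111.19 and 153.38.

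The median score of control-only sites was 85.59, with the middle 50% between 63.1 and 135.4, against 198.47 for shared control peaks. The share without a large T peak fell with every score decile of the control list. It was 51.8% in the lowest decile (4122 of 7954 peaks, scores 50 to 61.58), 23.7% in the fifth, 12.1% in the seventh, 3.80% in the ninth (302 of 7954) and 1.60% in the highest (127 of 7953, scores from 488.74). Deciles 1 to 5 thus held 14875 of the 18303 sites, deciles 6 to 8 held 2999 and deciles 9 and 10 held 429. The highest score of a control-only site was 868.57, where the highest of a shared peak was 2335.97.

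**Figure D1:**
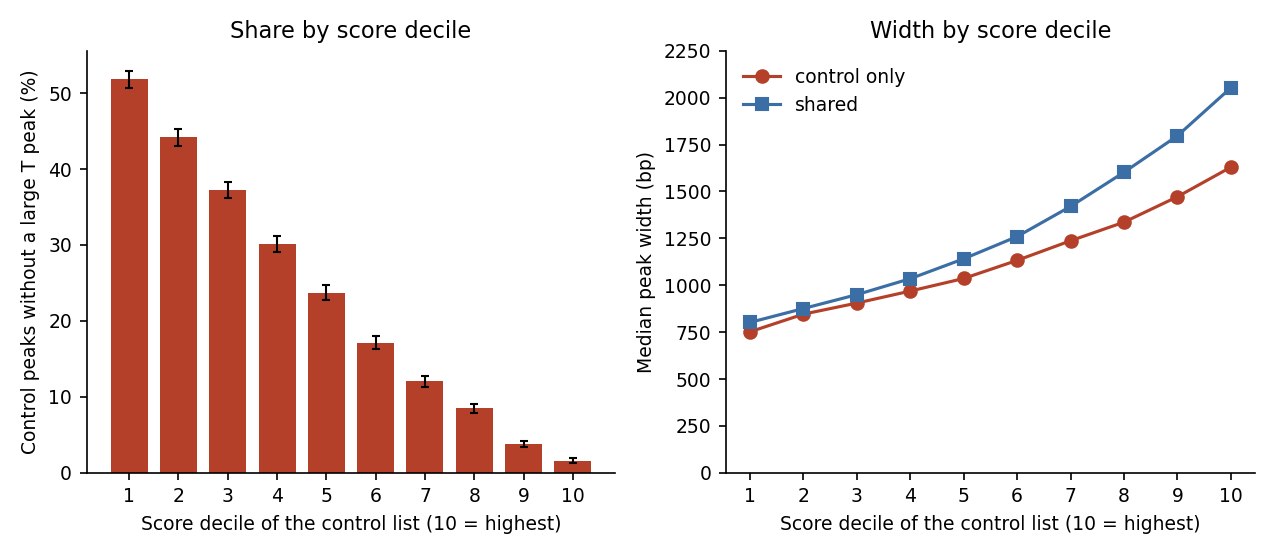
Left, share of control peaks without a large T peak (percent, bars) in each score decile of the control list, with exact 95% binomial intervals; right, median peak width (bp) of control-only and shared control peaks in each decile. The share falls from 51.8% to 1.60%, and the control-only median width lies below the shared one in all 10 deciles.

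Control-only sites were narrower than shared peaks of like score, and the difference grew with the score. Their median width was 929 bp (95% interval 924 to 933), against 1342 bp for all shared control peaks and 985 bp for shared peaks weighted to the same score deciles. In the lowest decile the medians were 752 and 802 bp, in the eighth 1336 and 1602 bp, and in the highest 1629 and 2052 bp, so that control-only sites reached 93.8%, 83.4% and 79.4% of the shared width. A wide peak has more bases with which to meet the 1 bp rule, so width is not independent of membership. The highest decile is broad and control-only sites sat low in it, with a median score of 550.14 against 610.47. With matching in 100 score bins instead of 10, the widths there were 1629 and 1993 bp.

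A few control-only sites were very broad for their score. The 5 widest spanned 6652 to 7385 bp and scored between 60.36 and 137.24, below the median of shared peaks. They lay on JH602067 (25024664 to 25032048), JH602045 (25944840 to 25952101), JH602055 (11883333 to 11890354), JH602134 (834999 to 841677) and JH602056 (17226721 to 17233372). The site on JH602045, 7262 bp wide, lay 12 bp from a large T peak, and the other 4 lay 5659 to 25198 bp from one.

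Most control-only sites had large T peaks in their neighbourhood. The median gap to the nearest large T peak was 7582 bp (95% interval 7432 to 7727), with the middle 50% between 3072 and 17902 bp. A large T peak lay within 500 bp of 876 sites (4.79%), within 5 kb of 6789 (37.1%) and within 50 kb of 16935 (92.5%). For shared control peaks, weighted to the same deciles, the gap to the nearest large T peak that did not overlap them had a median of 6996 bp and was within 50 kb for 96.6%. Within 2000 bp the shares were 17.2% and 14.6%, and beyond 100000 bp they were 2.70% and 0.964%. These gaps are given as a description only, because the rule used the position of large T peaks and a shared peak has 1 of them on it already. Among the 876 sites with a large T peak within 500 bp, the nearest one was a large T-only peak for 262 (29.9%) and belonged to a shared site for the others. Large T-only peaks were 25.7% of the large T list.

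High-scoring control-only sites lay farther from large T peaks than shared peaks of like score, by a larger factor than they lay from other control peaks. In the 3 lowest deciles the median gaps to the nearest non-overlapping large T peak were within 5% of each other, for example 7094 bp for control-only and 6980 bp for shared peaks in the lowest. They were 11223 and 7735 bp in the eighth decile, 12226 and 8424 bp in the ninth, and 20281 and 9976 bp in the highest, which is 1.45, 1.45 and 2.03 times the shared value. The median gap to the nearest control peak of either kind was 1.14, 1.13, 1.09 and 1.24 times the shared value in deciles 6 to 9, for example 8431 against 7707 bp in the eighth. In the highest decile it was 9822 bp for control-only and 10036 bp for shared peaks, 0.979 times the shared value. Matched in 100 score bins, the gaps in that decile were 20281 against 9605 bp to large T peaks and 9822 against 9567 bp to control peaks. This contrast is partly built into the rule, since control-only neighbours have no large T peak on them either. They were 52.96% of the adjacent control peaks of control-only sites in the highest decile, against 21.4% for shared peaks.

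**Figure D2:**
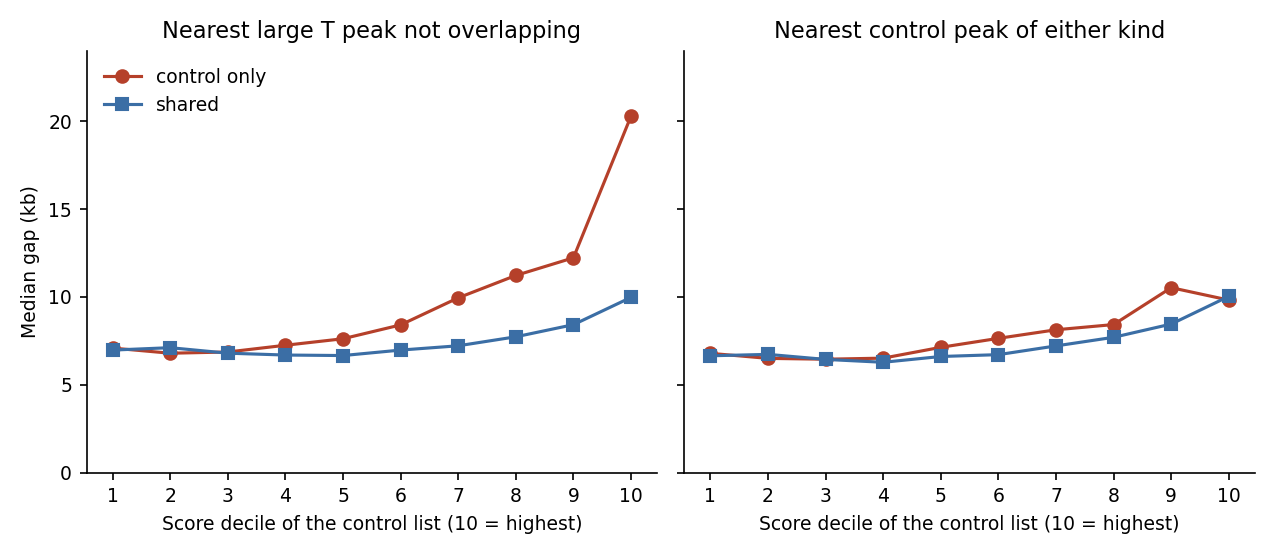
Median gap (kb) from control-only and shared control peaks to the nearest large T peak that does not overlap them (left) and to the nearest other control peak (right), by score decile of the control list. The curves part from the fourth decile on at left and end at 20281 and 9976 bp. At right the control-only curve lies above the shared one by a smaller factor in deciles 5 to 9, at most 1.24 times, and the curves end at 9822 and 10036 bp. The gaps at left are not independent of membership, which required that no large T peak overlap the site.

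The 127 control-only sites of the highest decile lay on 80 scaffolds, with at most 6 on 1 scaffold. Of these, 64 had no large T peak within 20000 bp, 32 had none within 50 kb, and 13 had one within 5 kb. Without the 6 sites on JH602053, which carries the longest block described below, the median gap to a large T peak was 18980 bp over 121 sites. Without the 8 sites in runs of 10 or more control-only peaks it was 17718 bp over 119 sites. The 30 sites whose adjacent control peaks were all shared, and so had large T peaks on them, had a median gap of 9164 bp.

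Sites flanking a shared peak were compared with isolated ones. Of the control-only sites, 5152 (28.1%, 27.5 to 28.8) lay within 5 kb of a shared control peak, and 13151 (71.9%) did not. Shared control peaks of the same deciles had another shared peak within 5 kb in 30.6% of cases. The median gap to the nearest shared control peak was 10140 bp for control-only sites (9923 to 10369) and 8625 bp for matched shared peaks. Over the deciles the flanking share fell from 30.0% in the lowest to 13.9% in the eighth and 3.94% (5 of 127) in the highest, against 32.0%, 22.8% and 13.0% of shared peaks. The gap to shared peaks is not independent of membership, because shared peaks by definition have a large T peak on them.

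Flanking sites scored slightly lower and were wider than isolated ones. Their median score was 80.66 against 88.39, and 45 of 5152 (0.873%) against 384 of 13151 (2.92%) were in deciles 9 and 10. Their median width was 1060 bp against 889 bp, and 858 bp for isolated sites weighted to the deciles of the flanking ones. Flanking sites were wider by 139 to 218 bp in each of deciles 1 to 8. The difference was 42 bp in the ninth decile, with 40 flanking sites, and -9 bp in the highest, with 5.

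The shared peak beside a flanking site was usually the stronger of the pair. It had the higher score for 3900 of 5152 flanking sites (75.7%) and the greater width for 3658 (71.0%), with medians of 156.89 for score and 1360 bp for width. All shared control peaks had medians of 198.47 and 1342 bp, against 85.59 and 929 bp for all control-only sites. The difference is thus present in the whole list and is not particular to these pairs. By position, the nearest large T peak was closer to the flanking site than the nearest shared control peak was for 2781 sites (54.0%), and the shared control peak was closer for 2288 (44.4%). Of isolated sites, 13.2% had a large T peak within 5 kb and 1368 (10.4%) had none within 50 kb. They had a mean of 3.57 large T peaks within 50 kb, against 5.65 for flanking sites. Of flanking sites, 98.1% had a large T peak within 5 kb. These positions and contrasts follow largely from the 5 kb limit, because the shared peak beside a flanking site has a large T peak on it.

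Isolated sites held the strongest control-only peaks. The highest-scoring was on JH602133 at 6826299 to 6828000 (score 868.57, rank 630 of the 79538 control peaks), in a run of 7 control-only peaks with 5 other control-only, 1 shared and 1 large T peak within 50 kb. The second, on JH602053 at 4283918 to 4285648 (853.28), had no other peak of either list within 50 kb. The third, on JH602161 at 605477 to 606886 (832.94), was by contrast a single site among 6 shared control peaks within 50 kb, the nearest 11380 bp away. The fourth and the fifth were both on JH602083. The site at 1912917 to 1915585 (790.73) belonged to a run of 11, and the site at 15819 to 17527 (785.12) was single, with its nearest control peak 47986 bp away. High score therefore occurred both inside blocks of control-only peaks and at single sites among shared ones.

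The highest-scoring flanking sites were weaker, with scores of 489.98 to 625.77, and all 5 lay 4352 to 4905 bp from a shared peak, near the 5 kb limit. They were on JH602157 at 2686079 to 2686808 (730 bp wide), JH602171 at 1778878 to 1780875, JH602125 at 5485002 to 5486405, JH602080 at 11099299 to 11100921 and JH602120 at 9508292 to 9510252. The sites on JH602171, JH602125 and JH602120 each stood alone between shared peaks, and each had 5 or 6 large T peaks within 50 kb.

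Control-only sites lay next to each other more often than shared peaks lay next to control-only sites. Of the adjacent control peaks of control-only sites, 28.7% were control-only, against 21.1% for the neighbours of shared peaks of the same deciles. The first value rose from 26.0% in the lowest decile to 34.6% in the seventh, 38.9% in the ninth and 52.96% in the highest. The second stayed between 20.7% and 21.9% in all 10 deciles. Of 18196 sites with a control peak on both sides, 9697 (53.3%) had 2 shared neighbours, 6569 (36.1%) had 1 of each kind and 1930 (10.6%) had 2 control-only neighbours. Median scores in these classes were 82.44, 87.3 and 100.8, and median gaps to a large T peak were 5163, 9911 and 30944 bp. The order of these gaps follows from the classes, because a shared neighbour by definition has a large T peak on it.

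The make-up of the surroundings also differed. Control-only sites of deciles 9 and 10 had on average 2.41 shared control peaks, 1.52 other control-only peaks and 0.655 large T-only peaks within 50 kb. Shared peaks of the same deciles had 3.60, 0.943 and 0.998. For all deciles the means were 3.25, 1.21 and 0.908 against 3.76, 0.959 and 1.12. Around control-only sites there were thus fewer shared and large T-only peaks and more control-only peaks, with larger differences at high scores.

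Shared peaks between control-only sites ranked lower in the large T list than shared peaks of like score between shared ones. This used the large T score in 60370 shared sites paired between the lists and with a control peak on both sides. Ranks were taken among paired sites, and the shift is large T minus control, in percentile points. The rule used no large T scores, but the large T list itself starts at a score of 50. A neighbour is thus control-only where no large T peak of at least that score overlaps it. The grouping is therefore not independent of the large T signal. The median shift was 1.55 points with 2 shared neighbours (37710 sites), 0.276 with 1 control-only neighbour (19458) and -1.34 with 2 control-only neighbours (3202). Weighted to the score deciles of the last class, sites with 2 shared neighbours had a shift of 1.36, a difference of -2.70 points. The difference is small beside the spread among sites, whose middle 50% ran from -16.7 to 9.85 points in the last class. By decile, the class with 2 control-only neighbours lay below the class with 2 shared neighbours in all 10 deciles, for example at -10.6 against -0.977 in the ninth. In deciles 1 to 3 its median shifts were positive, at 12.2, 6.49 and 3.12 points, against 13.5, 8.39 and 4.43. Neighbouring sites of 1 pair of libraries are not independent replicates, and the difference was not tested.

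**Figure D3:**
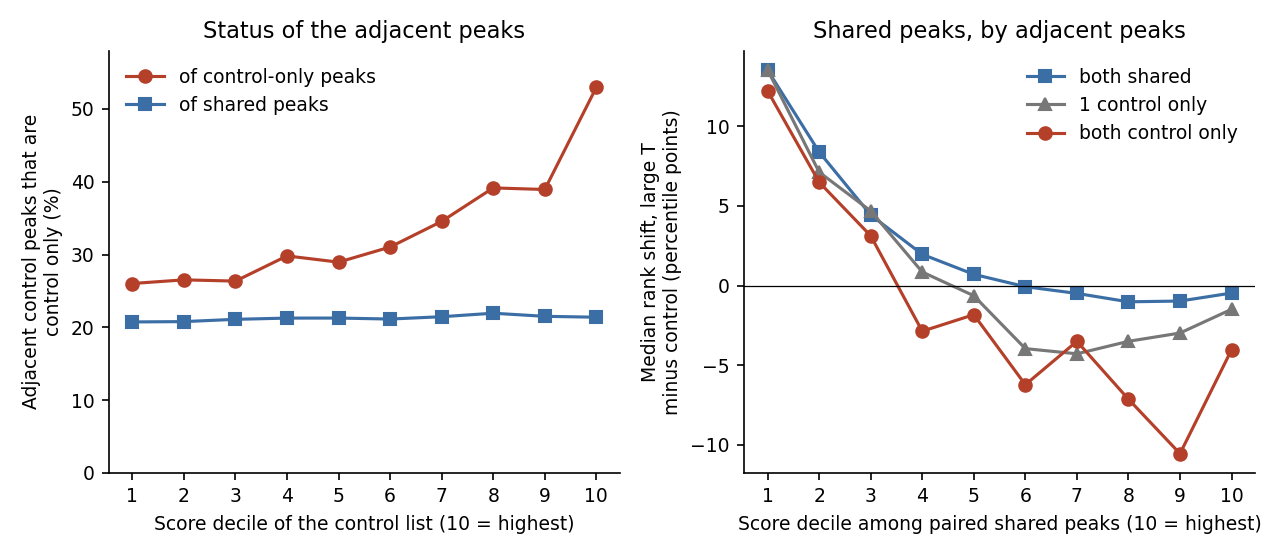
Left, percent of adjacent control peaks that are control-only, for control-only and for shared peaks, by score decile of the control list; right, median rank shift of paired shared sites (percentile points, large T minus control) by score decile and by how many of the 2 adjacent control peaks are control-only. At left the control-only curve rises from 26.0% to 52.96% while the shared curve stays near 21%, and at right sites between 2 control-only peaks lie below those between 2 shared peaks in every decile.

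Runs of control-only sites, with no shared control peak between them, ranged from 1 to 24 peaks. Single sites made up 9769 of the 18303 (53.4%) and pairs 4438 (24.2%). Runs of 3 or more held 4096 sites (22.4%) in 1083 runs on 178 scaffolds, with a median span of 55.3 kb. Of these runs, 780 (72.0%) contained no large T peak at all, and by definition only large T-only peaks could lie inside. Among large T-only peaks of the naked mole rat, 25.5% were in such runs, and 72.9% of the runs held no control peak. Among mouse control-only peaks, 27.7% were in such runs, and 80.5% of the runs held no large T peak. Runs of 6 or more numbered 97, on 61 scaffolds, and held 739 sites over 28.5 Mb. Median scores rose with run length up to runs of 6 to 9 and were lower again in the longest class. The median score was 82.44 in single sites, 92.92 in runs of 3 to 5, 111.34 in runs of 6 to 9 and 105.34 in the 11 runs of 10 or more. The share in the highest decile was 0.307%, 1.40%, 1.69% and 5.44% (8 of 147 sites). Several of these 8 sites lay in the longest run, described next, so they are not separate cases. Median widths differed little, between 915 and 990 bp.

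The longest run, on JH602053 from 3848022 to 5156022, held 24 sites over 1.31 Mb, and its nearest large T peaks lay 53291 bp before it and 233268 bp after it. Its peaks were a mixture of strong and weak ones. There were 4 in the highest decile, scoring 495.85, 853.28, 533.13 and 570.7, a further 2 in the ninth decile, and 7 in the lowest decile with scores of 51.58 to 59.98. The median score of the run was 126.04 and 9 of the 24 lay above the median of the whole control list. Control peaks were sparser in it than along the scaffold, 18.3 against 39.3 per Mb. Beyond both edges, many large T and control peaks again coincided, among others that were in 1 list only. The share of control-only sites on the whole scaffold was 23.5% (306 of 1301), close to the 23.0% of the list.

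**Figure D4:**
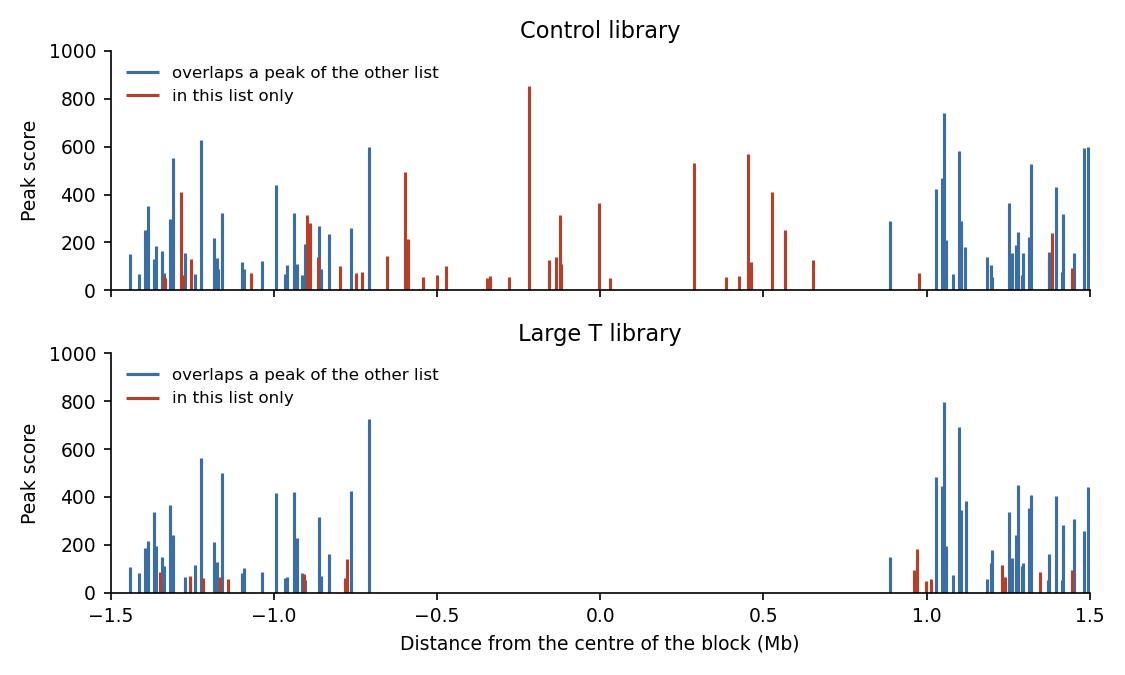
Peak scores in the control (top) and large T (bottom) lists over 3 Mb around the longest run of control-only sites, against distance from the centre of the run (Mb); each line is 1 peak, coloured by whether it overlaps a peak of the other list. The 24 control-only peaks of the run, with scores up to 853.28, face a stretch of the large T list without a peak. On either side many peaks of both lists coincide, among others in 1 list only.

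The next runs were shorter and mostly weaker. The run on JH602060 (24734488 to 25479864) held 16 sites with a median score of 111.22 and lay in a wider stretch without large T peaks, 546151 bp on one side and 492934 bp on the other. Those flanks held no whole control peak either, because a run ends at a shared peak, which has a large T peak on it. Control peaks were also sparser in the run than along its scaffold, 21.5 against 37.4 per Mb. The run on JH602049 (16022611 to 16643480) held 15 sites, of which 1 scored above the list's median, and large T peaks lay 6822 and 7398 bp beyond its ends. A second run on JH602053 (28789888 to 29505688) held 14 sites, with a highest score of 745.79. The run on JH602106 (7625743 to 7953742) held 12 sites over 0.328 Mb and was about as dense in control peaks as its scaffold, 36.6 against 34.2 per Mb. None of these 5 runs contained a large T peak.

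Sites far from any large T peak were few and were concentrated. There were 494 control-only sites (2.70%) on 109 scaffolds more than 100000 bp from a large T peak and 91 (0.497%) on 27 scaffolds more than 300000 bp from one, with 22 of the 91 on JH602053 and 16 on JH602060. The farthest was on JH602110 at 6044053 to 6045104, with a score of 516.33 in the highest decile, 1399668 bp from a large T peak and 730939 bp from the next control peak. The second, on the same scaffold at 6776044 to 6776895, scored 67.98 and lay 1102554 bp from one. The next 3 stood close together near the start of JH602116, at 34382 to 37209, 53729 to 54925 and 66786 to 68396, with scores of 354.68, 277.4 and 543.94. They belonged to a run of 4 and were 997264 to 1028451 bp from a large T peak, but 11860 to 16519 bp from another control peak. The sites of JH602110 were thus remote from all peaks, whereas those of JH602116 formed a group of control peaks remote from large T peaks.

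Every one of the 216 scaffolds carried a control-only site, and the share varied between scaffolds more than their score make-up did. Over the 87 scaffolds with at least 300 control peaks, which held 78.4% of the sites, the share had a median of 22.9%, ran from 8.79% to 36.2% and had an SD of 4.49 percentage points over scaffolds. The share that each scaffold's score deciles alone would give ran from 19.8% to 25.8%, with an SD of 0.969. The SD of the observed share includes counting error on each scaffold and the other SD does not, so they are not measured alike. On 7 scaffolds the observed share was over 5 points above that value and on 10 it was over 5 points below it, 19.5% of the 87 together. With scaffolds of at least 100 control peaks this share was 30.2%, where counting error is larger. With the highest-scoring 50% of the control list it was 4.65% (0.568 to 15.8). In that cut list fewer scaffolds held 300 control peaks, and 8.62% of control peaks were control-only. A limit of 5 points is harder to exceed there, so the value is not measured like the 19.5%. The scaffold with the most sites, JH602043, held 669, or 3.66% of them, close to its 3.45% of control peaks.

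Among these 87 scaffolds, the highest shares were on JH602110 (109 of 301 control peaks, 36.2%, 30.8 to 41.9), JH602126 (102 of 304, 33.6%, 28.3 to 39.2) and JH602045 (430 of 1334, 32.2%, 29.7 to 34.8). Their score deciles would give 25.8%, 24.4% and 23.5%. These scaffolds also had fewer large T than control peaks, with 231, 255 and 1236 large T peaks. The longest run on them held 7, 6 and 9 sites, at most 6.42% of their control-only sites, so the sites were not gathered in 1 block. The lowest shares among the 87 were on JH602141 (43 of 489, 8.79%, 6.44 to 11.7), JH602145 (38 of 401, 9.48%, 6.79 to 12.8) and JH602131 (55 of 385, 14.3%, 10.9 to 18.2), against 21.4%, 19.8% and 24.1% from their deciles. These carried 543, 438 and 411 large T peaks, more than control peaks. On these 6 scaffolds the share of control-only sites was thus high where the large T list was the shorter of the 2 and low where it was the longer. Both values come from the same lists, and what sets the ratio was not tested.

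**Figure D5:**
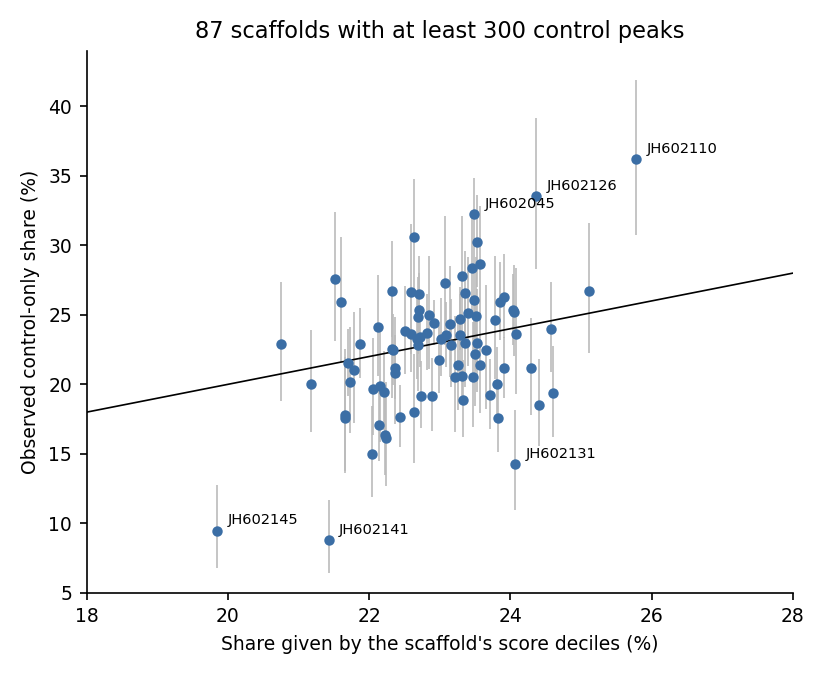
Observed share of control-only sites (percent, with exact 95% binomial intervals for counting error) against the share given by the score deciles of the scaffold's control peaks, for 87 scaffolds; the line marks equality. Observed shares run from 8.79% on JH602141 to 36.2% on JH602110, a wider range than the 19.8% to 25.8% of the horizontal axis values. The observed shares include counting error on each scaffold and the horizontal values do not.

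The share differed little with scaffold size. It was 22.3% on the 75 scaffolds whose last peak lay between 1 and 5 Mb, 22.0% on 53 of 5 to 10 Mb, 23.1% on 42 of 10 to 20 Mb and 23.3% on 46 of over 20 Mb, against 22.8 to 23.1% from the score deciles. At a finer scale, 3533 windows of 500 kb with at least 10 control peaks had a median share of 21.4%, with the middle 50% between 13.8% and 30.4%. In 100 windows no control peak was control-only. In 131 windows (3.71%), on 73 scaffolds, more than 50% were, and these held 1272 sites. In 13 windows more than 80% were. The score deciles of the windows would give 5.63% to 42.5%, with a median of 22.9%. The observed share lay 20 points above that value in 249 windows and 20 points below it in 83. A window can hold as few as 10 control peaks, so counting error alone spreads these shares widely. How much of the spread it makes up was not tested.

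These sites were set beside the library-only peaks of 2 other lists, the large T-only peaks of the naked mole rat and the control-only peaks of mouse fibroblasts, which were grown at 37 °C. The main traits were not particular to these sites. From the lowest to the highest decile the library-only share fell from 61.7% to 0.170% and from 70.2% to 0.0399% in the 2 other lists. Their library-only peaks had the smaller median width in all 10 deciles. Library-only peaks made up 75% and 66.7% of their neighbours in the highest decile, against 52.96% here. In the eighth decile the median gap to the nearest peak of the other list was 1.45 times that of shared peaks for these sites (675 sites), 2.16 times for the large T-only peaks of the naked mole rat (409) and 1.99 times for the control-only peaks of mouse (308). The median gap to the nearest peak of the same list was 1.09, 1.47 and 1.48 times the shared value. The order of the ratios to the other list held at higher scores. They were 1.45, 2.66 and 1.95 in the ninth decile and 2.03, 10.2 (14 peaks) and 5.09 (3 peaks) in the highest. The order of the ratios to the same list did not hold. Those were 1.24, 1.503 and 1.06 in the ninth decile and 0.979, 0.879 and 1.83 in the highest. In the lowest decile, 30.0% of these sites flanked a shared peak within 5 kb against 32.0% of shared peaks, where the large T-only peaks had 27.1% against 33.1% and the mouse control-only peaks 21.9% against 31.9%. The lists differ in length and in unknown depth, the 2 naked mole rat values come from the same pair of lists, and none of these differences was tested.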

How the data were processed

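Each library was deposited as a peak list without a header. Peak names begin with MACS, the peak caller; its settings are not stated there or in the labels. Per the submitters' processing notes, CASAVA, Bowtie, SAMtools and bedtools were used and the build was mm9, which cannot hold for naked mole rat scaffolds; the assembly they belong to is not named in the labels or files. The score in the deposited lists has no stated definition and begins at 50, so a lower limit was probably applied. Start and end positions are the authors' (deposited as whole numbers in bp, another kind of value than the score) and are printed with starts counted from 1. Read depth is unknown.

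Members and lists were chosen with earlier results of these data known. Gaps are the bases between peak edges. Score deciles were formed over the control peaks of the 216 scaffolds; "matched" or "weighted" values weight shared peaks to the deciles of the control-only sites. Intervals of shares are exact (Clopper-Pearson) and those of medians use order statistics; they treat neighbouring peaks as independent and cover counting error only. A run is a set of consecutive control-only peaks; large T-only peaks may lie inside. Named by rule were the 5 highest-scoring isolated and flanking sites, the 5 widest, the 5 farthest from and the 5 closest to a large T peak, the 5 longest runs, and the 3 scaffolds with the highest and the 3 with the lowest share among scaffolds with at least 300 control peaks. Shared sites were paired where each peak was the other's longest overlap. The functions were tested on 3 simulated lists of 79538 peaks with no wrong status, and on the deposited lists counts and gaps were the same as those of bedtools 2.31.1. Scripts ran under Python 3.11.15 with scipy 1.17.1, pandas 2.3.3 and numpy 2.4.6. Promoter distances, gene lists and sequences had been planned and were not computed, since no genome or annotation of these scaffolds was used here.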

Additional observations from a re-analysis of the deposited data

How the results depend on the processing

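Of the 65 recomputed values, 36 stayed within the 95% interval of the reported value. Only the width difference, the excess gap to shared control peaks and the isolated minus flanking score have a sign, and none changed it. The other results are shares and medians that have no direction. Using all scaffolds, scaffolds past 5 Mb, 20 score bins or (chosen after seeing the data) 100 score bins moved no value beyond that interval. Where 50% of a control peak had to be covered to count as shared, 24.6% of control peaks were control-only, with a median score of 89.07, a width 47 bp below matched shared peaks (-47 bp), a median gap to large T of 6855 bp, 27.1% flanking, isolated sites 10.2 above flanking ones in median score and 25.1% in runs of 3 or more. Where a large T peak within 500 bp counted as shared, the share was 21.9%, the width difference -68 bp, the gap 8143 bp, the excess gap to shared control peaks 2452 bp (reported 1515 bp) and the flanking share 25.8%. With the 80661 highest-scoring peaks of each list, the share was 24.1%, the gap 7796 bp and 23.6% were in runs. With the highest-scoring 50% of the control list, which leaves out the weak peaks, the share was 8.62%, the median score 223.9, the width difference -187 bp, the gap 9998 bp, the excess gap to shared peaks 5300 bp, the flanking share 9.36%, the isolated minus flanking score 19.5, the share in runs 10.5% and scaffolds over 5 points from their score-decile value 4.65% (reported 19.5%). That last share was 30.2% with scaffolds of at least 100 control peaks, where counting error is larger. The cut to 50% of the list also removed weak control peaks as possible neighbours and run members. Gaps to shared peaks, flanking and runs thus change by construction, so those values are not measured like the reported ones. In the uncut list, 19.1% of decile 1 control-only sites were in runs of 3 or more, against 25% in decile 6. The share was 32.6% in decile 8 and 51.2% in decile 10. Flanking sites made up 30.0%, 24.1%, 13.9% and 3.94% in these deciles. Flanking limits of 2 and 10 kb gave 12.1% and 49.6% flanking, with score differences of 9.54 and 5.63 (reported 7.74). No paired analysis was possible because each condition had 1 library. Depth is unknown, so a missing large T peak cannot be told apart from one too weak to be called.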
